A study of Mus musculus with 2 samples.

Results

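The genes described here encode the subunits of the kinesin and cytoplasmic dynein motors and of dynactin. They were chosen by name, as protein-coding genes whose symbol begins with Kif, Klc or Dctn and a number, with Dync, or with Dynll, Dynlr or Dynlt. The rule found 65 of 21474 protein-coding genes. The tissue was the central nervous system of mixed-sex littermates of the mouse strain C57BL/6J at embryonic day 18, with no treatment named in the labels, and polyadenylated RNA longer than 200 nt was sequenced. The 2 libraries, replicates 1 and 2, carry separate biosample labels and form 1 group, so the data hold no comparison between conditions. The labels do not say how many embryos each library held, and the spread between the libraries may therefore be technical. Levels are given in TPM, transcript abundance scaled to transcript length and to the library total, which can be compared between genes. Each ± is the SD of n = 2 libraries.

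Kinesins are ATP-driven motors, most of which walk toward the plus end of microtubules, and cytoplasmic dynein walks toward the minus end. In axons the plus ends point away from the cell body, so kinesins carry vesicles, mitochondria and RNA outward and dynein, with its cofactor dynactin, carries endosomes and signals back. Other kinesins build the mitotic spindle, shorten microtubules or serve in cilia, and dynein also moves the nucleus during neuronal migration.

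The gene tables assigned 93979836 fragments to genes in replicate 1 and 137012773 in replicate 2, at which 3 fragments amount to 0.0319 and 0.0219 CPM (counts scaled to the library total). The 10 young-neuron markers were all detected, at a median of 217 ± 5.70 TPM. Markers of other tissues and of choroid plexus summed to more in replicate 2. The 10 skeletal muscle markers summed to 16.1 TPM in replicate 1 and 667 in replicate 2, 8 bone and cartilage markers to 52.7 and 291, 10 sensory ganglion markers to 25.7 and 86.0, and 6 choroid plexus markers to 447 and 1428, and none of these markers was listed at 0 in either library. The choroid plexus sum was mostly Ttr, at 427 and 1389 TPM. Otx2 had 10.65 and 12.52, and Kl, at 0.46 and 0.43, was the only choroid plexus marker not higher in replicate 2. Levels of the motor genes are therefore given for both libraries, and medians, sums and levels of partner genes as mean ± SD. What part these tissues have in them was not tested. In bulk tissue, fewer cells of a type and less RNA per cell cannot be told apart.

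Motor genes were widely present. In both libraries 61 of the 65 members (93.8%) reached at least 1 TPM, against 62.9% of all protein-coding genes. The median member stood at 36.0 ± 0.559 TPM and the median protein-coding gene at 5.93 ± 0.138. The roles lay at different levels. Dynactin subunits had a median of 151 ± 2.66 TPM, dynein light chains 146 ± 4.64, the larger subunits of dynein 1 89.98 ± 10.1 and kinesin-1 subunits 83.4 ± 4.31, while kinesin-2 and kinesin-3 motors had 13.6 ± 0.651, the dynein 2 subunits 13.1 ± 0.187, mitotic kinesins 3.09 ± 0.0495 and kinesins of microtubule ends, cilia and signalling 2.84 ± 0.361. Neighbours in this order, such as dynactin and the light chains or mitotic kinesins and the last group, had ranges that overlapped. Of the members in order of level, 35 had a range over both libraries that overlapped that of the next gene. The members under the limit were the cytokinesis kinesin Kif14 at 0.78 and 0.81 TPM, Kif12 at 0.08 and 0.15, Kif28 at 0.05 and 0.06, and Kif2b, which had no fragment in either library.

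**Figure D1:**
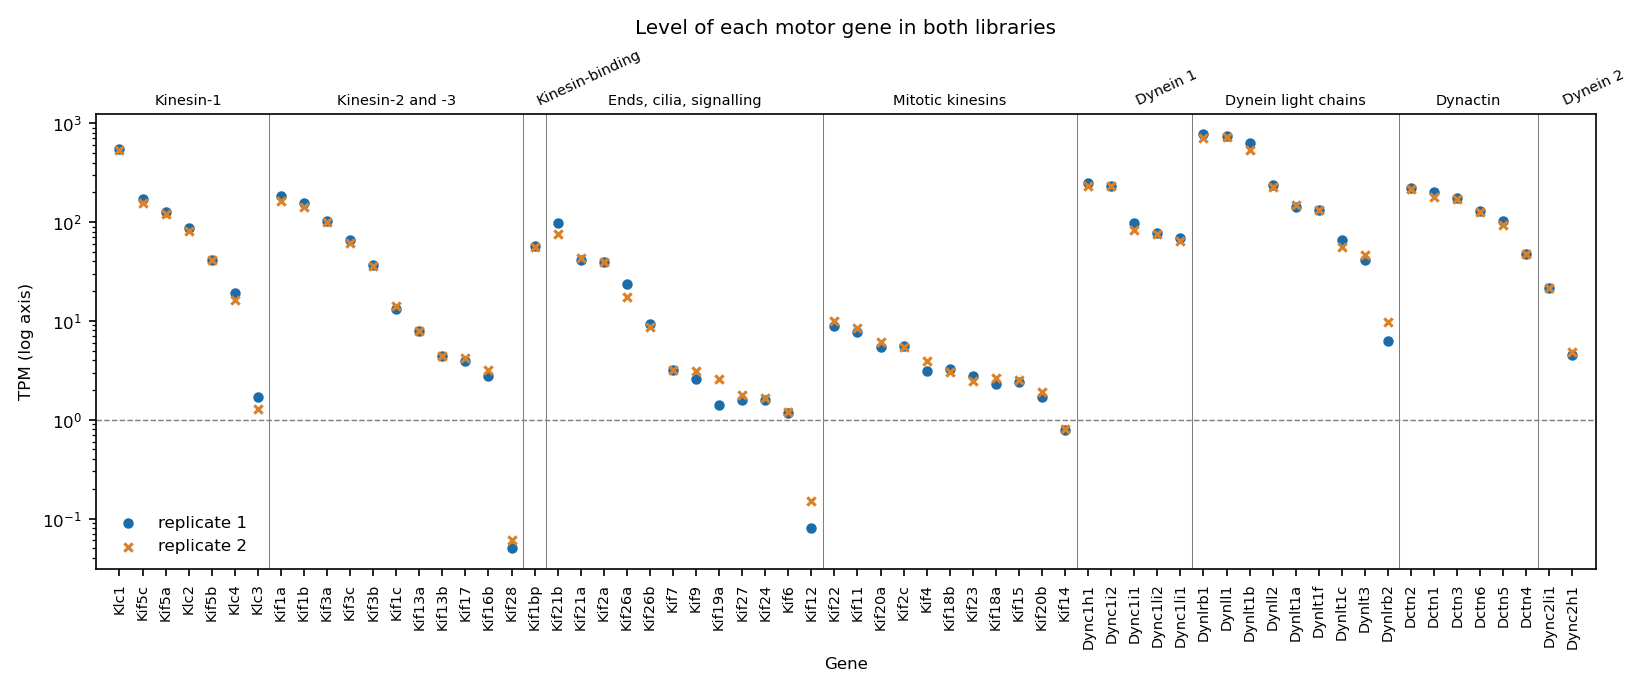
TPM on a log axis of 64 motor genes, grouped by role and ordered by level within each, with a circle for replicate 1 and a cross for replicate 2; the dashed line marks 1 TPM and Kif2b, at 0, is left out. Symbols of both libraries nearly coincide for most genes, and the transport and dynein groups reach far above the mitotic group, whose highest gene is Kif22 at 8.82 and 9.99.

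Kinesin-1, the conventional kinesin of fast axonal transport, is made of a pair of Kif5 heavy chains that walk and, for many cargoes, a pair of light chains that bind adaptors. Kif5c (ENSMUSG00000026764, GRCm38 chr2:49619298-49774778), enriched in neurons, had 170.3 TPM in replicate 1 and 157 in replicate 2. Kif5a (ENSMUSG00000074657, chr10:127225696-127263348), the heavy chain restricted to neurons, had 128 and 122. Kif5b, which is made in most tissues, had 41.7 and 41.3, so the neuronal heavy chains stood above it in both libraries. Of the summed heavy chains, 330 ± 13.8 TPM, Kif5c made up 49.6%, Kif5a 37.8% and Kif5b 12.6%.

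The order of the neuronal heavy chains turned on short noncoding transcripts. A 480-nt processed transcript, Kif5c-203, held 24.2% and 17.7% of the Kif5c TPM. Over coding transcripts only, Kif5a had 45.1% of the sum, Kif5c 44.2% and Kif5b 10.8%, and Kif5a was above Kif5c in replicate 1 (log2 ratio 0.09) and below it in replicate 2 (-0.03). The place of Kif5b at the bottom did not change.

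Light chains were more uneven than heavy chains. Klc1 (ENSMUSG00000021288, chr12:111758849-111807844), the main neuronal light chain, had 547 and 539.9 TPM and stood above 99.1% of protein-coding genes. Klc2, a second light chain of neurons and other cells, had 86.45 and 80.35, Klc4 19.2 and 16.2, and Klc3, known from the sperm tail, 1.70 and 1.29. Klc1 thus made up 84.1% of the summed light chains, 646 ± 11.5 TPM, and no range in this group of 4 overlapped another. The Klc1 level was spread over several coding transcripts, with Klc1-203 at 263 and 238 TPM and Klc1-201 at 125 and 130.2.

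Kinesin-3 motors carry vesicles over long distances. Kif1a (ENSMUSG00000014602, chr1:93015464-93101951), which carries precursors of synaptic vesicles and dense-core vesicles, had 183 and 162 TPM. Kif1b (chr4:149176319-149307693), which carries mitochondria or vesicle precursors depending on the tail it is spliced to, had 154 and 144. Their levels were close, with a log2 ratio of 0.21 ± 0.05 in favour of Kif1a, and the mm9 gene values (RPKM, reads scaled to gene length and depth) turned the order, at -0.80. Kif1c, a vesicle carrier found in many tissues, had 13.1 and 14.0.

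The longest transcript of Kif1b prevailed. Kif1b-203, a transcript of 10233 nt, held 104 and 106 TPM, and Kif1b-207, of 3391 nt, 30.7 and 19.9. The shorter transcript was the lower in both libraries. Which tail each transcript encodes was not examined. Kif13a and Kif13b, which carry endosomal and membrane cargo, had 7.87 and 7.91 and 4.45 and 4.44 TPM, and Kif16b, an early endosome motor, 2.75 and 3.15.

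Kinesin-2 is a trimer of Kif3a, either Kif3b or Kif3c, and an accessory subunit, and serves both axons and the assembly of cilia. Kif3a, the shared motor, had 102 and 100.6 TPM, close to the accessory subunit Kifap3 at 94.8 ± 2.72. The neuron-enriched partner Kif3c had 65.1 and 60.8 and the ciliary partner Kif3b 36.4 and 35.65, a log2 ratio of 0.79 ± 0.05. The summed partners thus came close to Kif3a. Kif17, the kinesin-2 known for carrying glutamate receptors in dendrites, had 3.92 and 4.17. Kif1bp, the kinesin-binding protein that blocks several kinesin motor domains and is needed for axon growth, had 57.7 and 56.1.

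Among the kinesins of microtubule ends, cilia and signalling, those known from neurons led. Kif21b, which holds back microtubule growth in neurons, had 97.6 and 75.6 TPM. Its relative Kif21a, mutated in congenital fibrosis of the eye muscles in humans, had 41.3 and 43.3. Kif2a, which shortens microtubules and trims axon collaterals, had 39.8 and 39.0. Kif26a and Kif26b, atypical kinesins that do not walk, had 23.7 and 17.2, and 9.27 and 8.57. Kif7, a regulator of Hedgehog signalling at the tip of the primary cilium, had 3.22 and 3.15.

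The members known from motile cilia were all low. Kif9 had 2.58 and 3.09 TPM, Kif27 1.59 and 1.79, Kif6 1.17 and 1.21, and Kif19a, which limits the length of cilia, 1.42 and 2.57. Kif24, which acts at the centriole against cilium growth, had 1.58 and 1.65. The 10 ciliated ependyma markers summed to 36.3 and 43.0 TPM, with 8 of them detected and the highest, Ccdc39, at 12.2 and 14.4.

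Kinesins of cell division formed a low and narrow group, from 1.71 to 9.99 TPM in the 10 members over the limit. Kif22, a chromokinesin, had 8.82 and 9.99, and Kif11, which slides spindle microtubules apart, 7.75 and 8.45. Kif20a and Kif23, which build the central spindle for cytokinesis, had 5.41 and 6.18, and 2.75 and 2.44. Kif2c, a microtubule depolymerase of the kinetochore, had 5.56 and 5.44, and the chromokinesin Kif4 3.12 and 3.89. Kif18a and Kif18b, which set microtubule length in the spindle, had 2.29 and 2.66, and 3.23 and 3.05. Kif15, a partner of Kif11, had 2.39 and 2.51, and Kif20b, which acts in late cytokinesis, 1.71 and 1.92. The 10 markers of dividing cells were all detected and summed to 155 and 171 TPM, led by Cdk1 at 48.6 and 55.3.

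The promoters of these spindle genes were searched for a pair of elements. The CHR (cell cycle genes homology region), searched as TTTGAA on both strands, is bound by complexes that silence and later activate genes of the G2 and M phases, often beside a CCAAT box, bound by NF-Y and searched as CCAAT on both strands. The motifs can share at most 1 base, and a match is a run of letters, not evidence of binding. In RefSeq's GRCm38.p6 promoters, which span 250 bases before to 50 after the start, TTTGAA was in 9 of the 10 mitotic kinesins with an entry, in 4 of the 46 promoters (8.70%) of the other members, and in 17.9% of all 32851 promoters. CCAAT was in 6 of 10, in 39.1% of the other members and in 37.4% of all. Both were in 6 of 10, in 4.35% of the other members and in 6.95% of all. No test was made of these shares. Examples are shown from 150 bases before to 30 after the start, with both motifs in capitals as they lie on either strand, so that ATTGG and TTCAAA are the reverse forms.
Kif11, chr19:37376232-37376411, plus strand: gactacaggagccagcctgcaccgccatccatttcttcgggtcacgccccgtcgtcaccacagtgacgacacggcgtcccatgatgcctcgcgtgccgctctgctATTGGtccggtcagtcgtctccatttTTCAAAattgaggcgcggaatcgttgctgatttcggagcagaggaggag
Kif22, chr7:127042391-127042570, minus strand: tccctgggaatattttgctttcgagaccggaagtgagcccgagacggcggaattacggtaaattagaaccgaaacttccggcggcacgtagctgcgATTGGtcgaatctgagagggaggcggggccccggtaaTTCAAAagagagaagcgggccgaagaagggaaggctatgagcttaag
Kif18b, chr11:102925095-102925274, minus strand: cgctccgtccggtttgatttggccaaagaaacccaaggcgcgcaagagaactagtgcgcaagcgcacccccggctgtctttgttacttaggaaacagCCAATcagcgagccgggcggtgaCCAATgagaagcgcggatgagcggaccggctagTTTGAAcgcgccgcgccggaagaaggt
Kif23, chr9:61946770-61946949, minus strand: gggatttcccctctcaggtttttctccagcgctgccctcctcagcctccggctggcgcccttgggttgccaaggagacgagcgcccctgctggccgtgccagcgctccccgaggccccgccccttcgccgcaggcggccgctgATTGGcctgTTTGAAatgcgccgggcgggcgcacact

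In these 4 promoters the CCAAT box came first and the CHR followed nearer the start. The other promoters with both motifs differed. Kif4 had its last CCAAT 5 bases before the start and the CHR 19 after it. Kif14 had the reverse order, with the CHR 228 bases before the start and its last CCAAT 92 before it. The CHR began 19 bases before the start in Kif11 and Kif15 and 17 before it in Kif22, and 2, 3, 13 and 19 bases after it in Kif23, Kif18b, Kif20b and Kif4. It lay farther out in Kif2c, 103 bases before the start, and in Kif14, 228 before it. For both, the RefSeq promoter lay inside the GENCODE gene. That of Kif2c was chr4:117178723-117179022, in a minus-strand gene that spans 117159639 to 117182639. That of Kif14 was chr1:136467598-136467897, in a plus-strand gene that begins at 136466343. Kif18a had neither motif in this window.

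Cytoplasmic dynein 1 is built on a dimer of the heavy chain Dync1h1, whose motor ring makes the steps, with intermediate chains that bind dynactin and light intermediate chains that bind cargo adaptors. Dync1h1 (ENSMUSG00000018707, chr12:110601452-110666945) had 249 and 234 TPM. Of the intermediate chains, the ubiquitous Dync1i2 had 230.2 and 231 and the neuron-enriched Dync1i1 97.2 and 82.8, so Dync1i2 made up 72.0% of the sum of 321 ± 9.71. A single coding transcript led each, Dync1i1-204 with 66.6% and 66.7% of its gene and Dync1i2-207 with 60.9% and 54.9%. The light intermediate chains were near parity, with Dync1li2 at 76.9 and 76.5 and Dync1li1 at 69.7 and 64.98, a log2 ratio of -0.19 ± 0.06 that came to 0.02 in the mm9 values.

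The gene-level value of Dync1h1 rested on short transcripts. The full-length coding transcript of 14342 nt held 57.3 and 55.55 TPM, or 23.05% and 23.7% of the gene. The retained-intron transcripts Dync1h1-204 of 427 nt, with 140.1 and 136, and Dync1h1-207 of 621 nt, with 41.9 and 33.8, held most of the rest. In fragments the picture was the opposite, since coding transcripts took 94.0% and 94.2% of those assigned to the gene. Counted by coding transcripts, the heavy chain stood below the light intermediate chains rather than above both intermediate chains.

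**Figure D2:**
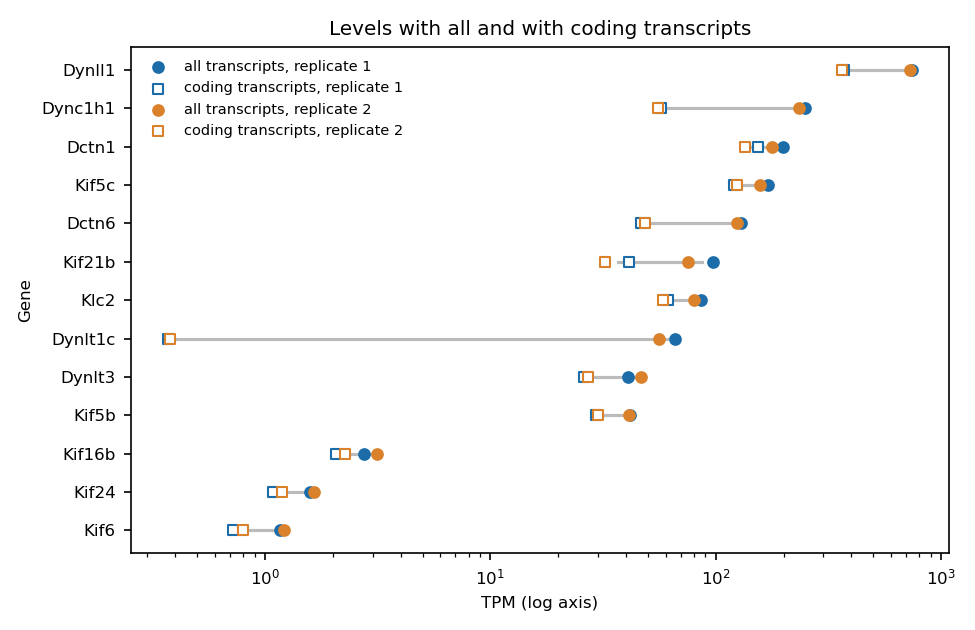
TPM on a log axis for the 13 detected members whose coding transcripts held under 80% of the gene's TPM in both libraries, with filled circles for all transcripts and open squares for coding transcripts only, in blue for replicate 1 and orange for replicate 2. Grey lines join the means; the gap is widest for Dynlt1c, Dync1h1, Dctn6 and Kif21b.

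A share of coding transcripts under 50% of TPM in both libraries was found in 4 of 61 members (6.56%), against 7.73% of protein-coding genes, so the members were near the background. Dync1h1 was one of them. Dynlt1c, a copy of the Tctex light chain, had 0.37 and 0.38 coding TPM out of 65.8 and 56.1, with Dynlt1c-203, a retained-intron transcript of 3250 nt, at 40.9 and 38.8. Dctn6 had 46.4 and 48.7 coding TPM out of 129 and 125. Kif21b had 41.2 and 32.4 out of 97.6 and 75.6, and there the main transcript outside the protein-coding type was as long as the protein-coding one. Kif21b-204, of 9254 nt and annotated as a target of nonsense-mediated decay, held 54.4 and 41.8 TPM, and the protein-coding Kif21b-201, of 9115 nt, 41.15 and 32.4. The ratio of Kif21a to Kif21b turned from -1.01 to 0.21 on the log2 scale when coding transcripts alone were counted.

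Of the 4 highest members 3 were dynein light chains, while others of this group lay far lower. These small dimers sit on the intermediate chains in 3 families. Dynlrb1 (chr2:155236533-155250277), of the roadblock family, had 771 and 707 TPM, and Dynll1 (chr5:115297110-115300999), of the LC8 family, which also binds many proteins outside dynein, 742 and 726. The ranges of these genes overlapped, and they were the highest members when all transcripts were counted. Over coding transcripts only, Dynlrb1 had 756 and 692 TPM, but Dynll1 had 370.2 and 365, below Dynlt1b at 623 and 533 and Klc1 at 532 and 523. Dynll2 had 235 and 228, and Dynlrb2, a roadblock chain best known from ciliated cells and testis, 6.31 and 9.66. The coding sequences of Dynll1 and Dynll2, both of 267 bases, were identical at 217 bases (81.3%), and those of Dynlrb1 and Dynlrb2, both of 288 bases, at 207 (71.9%). A retained-intron transcript of 478 nt, Dynll1-204, held 35.6% and 35.03% of the Dynll1 TPM. The log2 ratio of Dynll1 to Dynll2 was 1.66 over all transcripts and 0.67 over coding transcripts.

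The Tctex family showed why levels of single copies are uncertain. Dynlt1a, Dynlt1b, Dynlt1c and Dynlt1f lie on chromosome 17 between 6306340 and 6655900, and Dynlt1b had 623 and 533 TPM, Dynlt1a 143 and 149, Dynlt1f 134 and 132 and Dynlt1c 65.8 and 56.1. The coding sequences of Dynlt1a, Dynlt1c and Dynlt1f, of 339 bases each, were identical, and that of Dynlt1b differed from them at 1 base. The first 60 coding bases hold that base, shown as a capital.
Dynlt1a, Dynlt1c and Dynlt1f: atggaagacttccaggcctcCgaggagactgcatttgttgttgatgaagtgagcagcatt
Dynlt1b: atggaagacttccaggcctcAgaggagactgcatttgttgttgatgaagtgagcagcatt

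Reads from the coding part can hardly be divided among these copies, so the sum of 918 ± 67.9 TPM, above that of any other light chain gene, is the firmer value. Dynlt3, whose coding sequence was identical to that of Dynlt1a at 62.5% of aligned positions, had 41.0 and 46.7 TPM.

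Dynactin joins dynein to cargo adaptors and makes its runs longer. Dctn1 (chr6:83165920-83200117), the large arm that binds microtubules and the intermediate chains, had 199 and 179 TPM. Dctn2 (chr10:127266368-127281950), dynamitin, whose excess takes the complex apart, had 223 and 215, and Dctn3, its shoulder partner, 176 and 173. The pointed-end subunits, which take part in adaptor binding, were lower and less even, with Dctn6 at 129 and 125, Dctn5 at 102 and 94.2 and Dctn4 at 47.0 and 47.1. Dctn2 and Kif5a lie back to back on chromosome 10, read away from each other with a gap of 3019 bases. The 6 dynactin subunits outside the name rule had a median of 115 ± 6.30, led by the actin-related proteins Actr1b at 212 ± 2.57 and Actr1a at 189 ± 9.45 and the capping protein Capzb at 128 ± 11.99, with Actr10 the lowest at 37.7 ± 0.969.

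Dynein 2, the motor that returns cargo from the tip of the cilium, was much lower. Its heavy chain Dync2h1 had 4.49 and 4.84 TPM and its light intermediate chain Dync2li1 21.4 and 21.6. Against the coding level of Dync1h1, which is not raised by short transcripts, Dync2h1 was lower by 3.42 on the log2 scale; against the gene-level value it was lower by 5.42.

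RNA of proteins that bind these motors was present too. The list of 23 kinesin partners and cargo adaptors also held kinesins outside the name rule, namely Kifc1, Kifc2, Kifc3 and Cenpe. All 23 genes were detected, at a median of 71.5 ± 4.99 TPM. The highest were Fez1, an adaptor of kinesin-1 in axons, at 335 ± 8.46, and the JNK-interacting scaffolds Mapk8ip3 at 179.9 ± 9.98 and Mapk8ip1 at 170.3 ± 9.77, and the lowest was the mitotic kinesin Cenpe at 1.81 ± 0.283. Of 21 dynein regulators and adaptors 20 were detected, at a median of 28.5 ± 2.93. The huntingtin-associated adaptor Hap1 led at 219.9 ± 1.24, followed by Bicdl1, an adaptor in growing axons, at 169 ± 6.17 and Pafah1b1 (LIS1), mutated in human lissencephaly, whose protein helps dynein to assemble active complexes, at 123 ± 3.40, and Bicdl2 was the lowest at 0.135 ± 0.0495.

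Related genes kept their order in both libraries when TPM of all transcripts was counted. The members differed between the libraries by a median absolute log2 ratio of 0.0922, so a shared order was likely. Coding transcripts alone or mm9 RPKM turned the mean ratio of 4 pairs. In all 19 pairs of relatives the same member was higher in replicates 1 and 2, and in 13 of them it was the one entered first. Over all transcripts the widest gaps were Dynlrb1 over Dynlrb2 (log2 ratio 6.39 ± 0.47), Dync1h1 over Dync2h1 (5.42 ± 0.12), Kif1a over Kif1c (3.57 ± 0.19) and Klc1 over Klc2 (2.69 ± 0.06). Over coding transcripts Dync1h1 over Dync2h1 came to 3.48 and 3.36, about level with Kif1a over Kif1c at 3.66 and 3.33. The closest were Dync1li1 and Dync1li2, Kif1a and Kif1b, and Kif18a and Kif18b at -0.25 ± 0.15.

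Several motors carried small alternative exons. Inclusion was measured on junction read counts of the mm9 files, whose replicate columns R1 and R2 are not tied to replicates 1 and 2, as the mean of both inclusion junctions over that mean plus the skipping junction. An annotated exon entered only if a junction that skips it was listed, so exons never seen skipped are not counted. Exons that share an end, such as those of 54 and 113 nt in Dctn6, count separately. Of 168 such exons with 20 or more reads in 44 members, 34 in 20 members were included at 5% to 95% in both columns. The same share over the exons of other genes was not computed. Of these 34, 28 had a length divisible by 3, and 10 were of at most 27 nt. A length divisible by 3 can keep the reading frame only where the exon lies within coding sequence. GENCODE M21 had 31 of the 34 with the same exon and intron lengths, 26 within coding sequence.

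A 24-nt exon of Kif1a (chr1:93026832-93026855) was included in 47.0% (95% exact binomial interval 44.9 to 49.1) of R1 and 49.4% (47.5 to 51.3) of R2. Between the same flanking exons lies a 27-nt exon (chr1:93034546-93034572), named after its values were seen, with 6.44% and 6.62%. When all junctions over each exon were counted, the 27-nt exon came to 3.95% and 3.97%, under the 5% limit. The 24-nt exon then came to 45.0% and 47.6%. Both are shown with 12 bases of the flanking exons in lower case.
Kif1a, 24 nt: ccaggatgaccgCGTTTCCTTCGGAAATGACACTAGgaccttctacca
Kif1a, 27 nt: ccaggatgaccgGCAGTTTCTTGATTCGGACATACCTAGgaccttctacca

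The transcript values gave the 24-nt exon a much higher share, 87.6% and 89.4% of the TPM in transcripts that hold or skip it. The only transcript with this exon, Kif1a-204 of 8206 nt, had 153.5 and 133 TPM. Over all 28 exons with both measures, 12 lay within 10 percentage points. Kif1b had an 18-nt exon (chr4:149265345-149265362) at 89.7% and 90.7%, and Dctn1 had exons of 18 nt (chr6:83186428-83186445) at 90.02% and 91.6% and, named after its values were seen, of 15 nt (chr6:83197319-83197333) at 92.0% and 87.3%. When all junctions over the exon were counted, the 18-nt exon of Dctn1 came to 84.6% and 82.4%. The 18-nt exon of Dctn1 lies in the basic region of the protein near its microtubule-binding domain. All are shown in capitals between 12 flanking bases.
Kif1b, 18 nt: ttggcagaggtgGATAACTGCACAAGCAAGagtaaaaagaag
Dctn1, 18 nt: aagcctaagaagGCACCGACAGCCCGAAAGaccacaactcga
Dctn1, 15 nt: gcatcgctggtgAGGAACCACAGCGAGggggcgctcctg

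The intermediate chains of dynein shared an alternative exon. Dync1i1 (chr6:5784439-5784498) and Dync1i2 (chr2:71233649-71233708) each have one of 60 nt, identical at 46 of 60 bases. It was included in 83.5% and 79.9% of Dync1i1 and in 94.98% and 94.2% of Dync1i2, so skipping was more frequent in the neuron-enriched gene in both columns. The exons are shown with the bases that differ in capitals.
Dync1i1, 60 nt: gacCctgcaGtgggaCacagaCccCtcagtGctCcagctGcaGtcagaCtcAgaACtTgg
Dync1i2, 60 nt: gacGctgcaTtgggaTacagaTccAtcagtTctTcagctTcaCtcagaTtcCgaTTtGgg

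Intermediate inclusion was also seen in Kif21b. Its 180-nt exon, which belongs to the transcript annotated for nonsense-mediated decay, was included in 55.5% (52.7 to 58.3) and 56.0% (53.2 to 58.8) of junction reads, beside 56.9% and 56.3% in transcript TPM. Kif21a had a 21-nt exon at 92.7% and 88.6%, Klc1 a 51-nt exon at 93.3% and 91.2%, Kif2a a 114-nt exon at 85.8% and 86.1%, Dync1li2 a 42-nt exon at 86.0% and 87.2% and the low Dync2h1 a 21-nt exon at 76.9% and 80.7%. Other Kif21a exons, named after their values were seen, were lower. One of 39 nt (chr15:90949006-90949044) had 43.9% and 48.0%, one of 108 nt 52.7% and 53.5%, and one of 15 nt 40.6% and 32.3%. With all junctions over the exon counted, these came to 27.4% and 30.6%, 36.2% and 36.5%, and 10.5% and 9.05%. A second exon of 39 nt had 75.8% and 76.4%. A 105-nt exon of Kif13a was mostly skipped, at 34.98% and 30.1%, and a 113-nt exon of Dctn6, which does not keep the frame, at 8.95% and 8.50%.

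**Figure D3:**
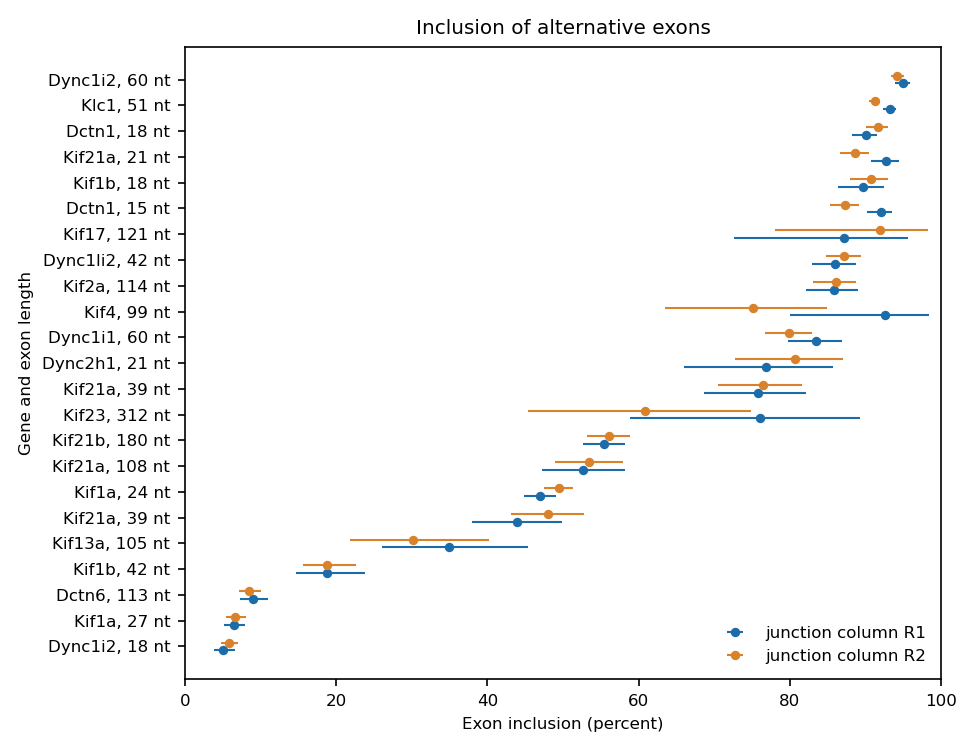
Percent inclusion of 23 alternative exons in 16 motor genes, from junction read counts in the columns R1 (blue) and R2 (orange), with 95% exact binomial intervals that cover counting error only; shown are exons with 50 or more reads whose inclusion junctions differ by at most 2-fold. Means run from 5.45% for the 18-nt exon of Dync1i2 to 94.6% for its 60-nt exon, with exons of Kif1a, Kif21a and Kif21b near the middle.

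Between the libraries the motor genes differed little. Ratios are of CPM scaled by TMM, replicate 2 over replicate 1, with 1 library on each side and no test. No member of the 61 measured passed 2-fold, against 2.19% of protein-coding genes, and 2 (3.28%) passed 1.5-fold, against 4.32%. The median absolute log2 ratio was 0.0922 for members and 0.0967 for all. In replicate 2, 28 of 61 members were higher, against 46.7% of all, and 33 were lower, against 53.3%. Without TMM scaling 43 of 61 (70.5%) were higher, against 62.7%.

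The 2 members past 1.5-fold are known from cilia. Kif19a had 161 and 400 fragments, 1.64 times the level in replicate 2 (counting interval 1.36 to 1.99), and Dynlrb2 111 and 260 fragments, 1.55 times (1.24 to 1.95). The other kinesins known from motile cilia moved less, with log2 ratios of 0.24 for Kif9, 0.18 for Kif27 and 0.03 for Kif6. Of the 8 ependyma markers measured, 7 were also higher in replicate 2, with a median log2 ratio of 0.21. So were all 5 choroid plexus markers measured, with a median of 1.16. What part these cells have in the ratios was not tested. The lowest ratio was that of Klc3, at 1.70 and 1.29 TPM and a log2 ratio of -0.47.

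Of the 10 mitotic kinesins measured, 8 were higher in replicate 2, at a median log2 ratio of 0.15 and with the same 8 to 2 split without TMM scaling, and the highest was 0.22. The markers of dividing cells, among them the mitotic kinesin Cenpe, moved by a like amount, with 9 of 10 higher and a median of 0.17. With TMM scaling 53.3% of all protein-coding genes were lower. All 5 larger dynein 1 subunits were lower, at a median of -0.05, but without TMM scaling 3 of the 5 were higher. Kinesin-1 subunits had a median of -0.07 with 5 of 7 lower, and young-neuron markers -0.10 with 7 of 10 lower.

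**Figure D4:**
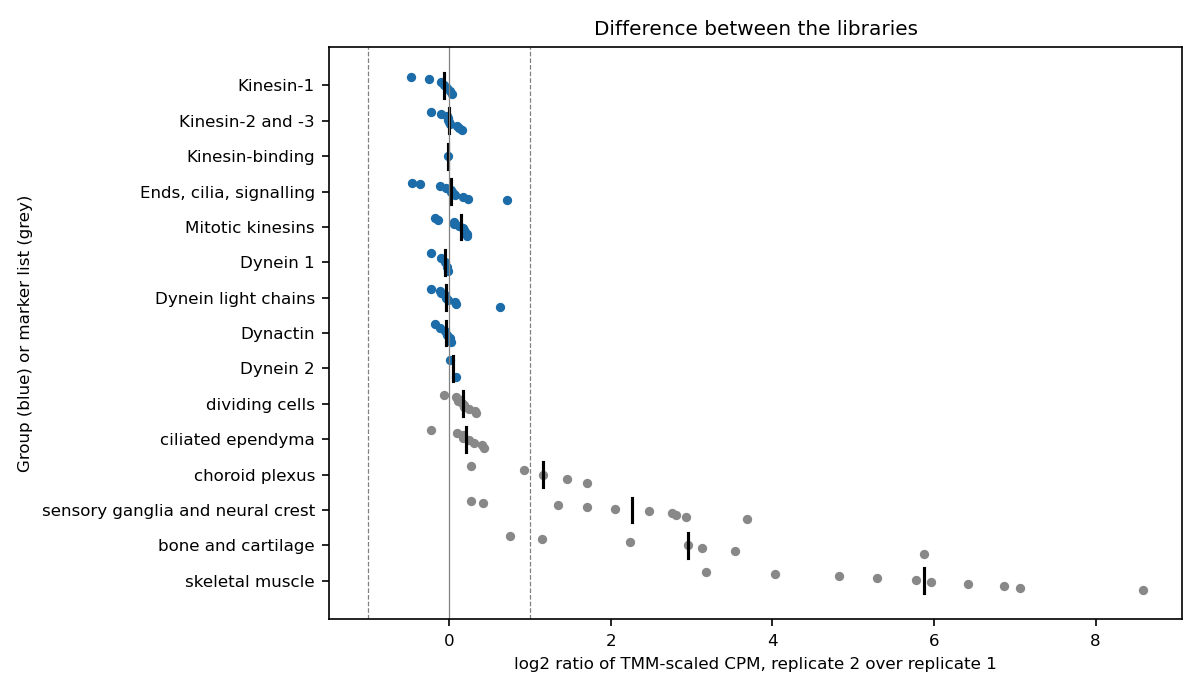
Log2 ratio of TMM-scaled CPM, replicate 2 over replicate 1, of each motor gene by role (blue) and of marker genes of other cells (grey), with black bars for medians and dashed lines at 2-fold. All motor genes lie within 2-fold, while the median marker of skeletal muscle is at 5.88 and that of choroid plexus at 1.16.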

How the data were processed

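Stranded pairs of 101 nt reads were made from both libraries, per the labels. For genes and transcripts the authors deposited FPKM, TPM and expected counts, and for transcripts also the percent of their gene. These rest on mm10 and, per the read-me texts, GENCODE M4. They also deposited RPKM per gene and junction read counts on mm9 with Ensembl release 65, per the file headers. Aligner and quantifier: not given in the sources used here. Entries that are not genes (3.62% and 4.01% of expected counts) were left out of library sizes. Symbols, types, positions and sequences came from GENCODE M21 (884 of 43346 genes had no symbol), and promoters from RefSeq GRCm38.p6, which held 49 of the 65 members.

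Expected counts were rounded, scaled by TMM in edgeR 4.0.16 with a prior count of 1, and compared for genes at a mean TPM of 1 or more. No test between groups was possible with 1 group. Coding transcripts are those of the protein-coding type in M21. Pairs used a pseudocount of 1. Exon intervals are exact binomial (Clopper-Pearson) at 95% and, like the limit of 3 counts, cover counting error only. Members, roles, marker lists, pairs and motifs were chosen with earlier results of these data known, and Kif1bp received its role after the files were opened. Named were all members by level, members past 1.5-fold, the 2 most abundant transcripts of a gene, its alternative exon with most reads, and the 3 highest and the lowest of the partner lists; a list symbol, Syd1, was not found. Alternatives were other thresholds, units, scalings and pseudocounts and leaving out each library; coding transcripts only, all junctions over an exon and balanced junctions were added after seeing the data. R 4.3.3, DESeq2 1.42.0, Python 3.11.15, pandas 2.3.3, SciPy 1.17.1 and Biopython 1.88 were used.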

Additional observations from a re-analysis of the deposited data

Results flagged for a closer look

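Of the 4 genes that match the names but are not protein-coding, Dynlt1-ps1, a processed pseudogene of the Tctex light chain, was the only one above 3 fragments in both libraries, at 3.52 TPM in replicate 1 and 4.78 in replicate 2. It is flagged as a signal outside the genes described. The pseudogenes Kif22-ps and Kif4-ps had no fragment, and the antisense gene Kif16bos had 0 and 2.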

How the results depend on the processing

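No paired analysis was possible because the series has 1 group and no comparison between groups. Counting coding transcripts only lowered the median TPM to 76.7 for the larger dynein 1 subunits, 112 for dynactin, 59.9 for kinesin-1, 48.9 for Kif1bp and 2.86 for mitotic kinesins. It turned Kif5a/Kif5c to 0.028 and Kif21a/Kif21b to 0.21 on the log2 scale, and the mm9 RPKM turned Kif1a/Kif1b to -0.80 and Dync1li1/Dync1li2 to 0.018. Of the recomputed pair ratios that kept their sign, 30 moved by more than their SD and 42 did not. Dynlrb1/Dynlrb2, for example, was 6.39 in TPM and 5.20 in mm9 RPKM. The other 68 recomputed medians and counts moved by less than the spread or by under 1.5 times. Among them were the members detected (55 to 62) and the alternative exons (25 to 37). The 68 include the role medians of TPM with a library left out, which with 2 libraries always stay within the SD and so show nothing. Leaving out a library left 61 members detected and 13 pairs with the first-entered gene higher. Depth limits Dynlrb2, Klc3, Kif19a and Kif6, the detected members with the fewest fragments in replicate 1 (111 to 187). TPM of transcripts outside the protein-coding type limits Dync1h1, Dctn6, Dynll1, Dynlt1c and Kif21b.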
